A study of Homo sapiens with 2 samples.

Results

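The Sprouty genes SPRY1, SPRY2, SPRY3 and SPRY4 and the SPRED genes SPRED1, SPRED2 and SPRED3 encode inhibitors that act back on the RAS-ERK pathway. They were taken by symbol from the deposited array table, and all 7 were measured, by 8 of its 28869 probes, among 18377 genes with a value. The data come from 2 cultures of K562, an established human leukaemia line driven by the BCR-ABL1 fusion kinase. Imatinib, which blocks that kinase, was given to both cultures at 2 µM for 6 h. One culture was grown with erythropoietin (EPO), a cytokine needed for red cell formation. The label of the other names no EPO, and because the growth protocol describes cells with and without EPO, it is taken as the one without. RNA of each culture was hybridised to 1 whole-transcript Gene 1.0 ST array, so each group has 1 array and no difference has an error or a test. No K562 cells without imatinib were analysed here, so the values do not show what imatinib did to these genes.

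Growth factor receptors, and in K562 cells the BCR-ABL1 kinase, load RAS with GTP through adaptors and exchange factors, and RAS then activates the kinases RAF, MEK and ERK in turn. Active ERK switches on immediate-early genes within minutes and a slower group of genes later, and Sprouty and SPRED genes belong to the slower group in many cells. Their proteins damp the pathway that induced them. Both families share a cysteine-rich Sprouty domain at the C-terminus. Sprouty proteins have a short conserved tyrosine motif that binds the ubiquitin ligase CBL, whereas SPRED proteins have an N-terminal EVH1 domain that brings the RAS-inactivating protein neurofibromin, the product of NF1, to the membrane. The comparison of cells grown with and without EPO bears on a second route into RAS, because the EPO receptor and its kinase JAK2 also recruit these adaptors.

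For SPRED2 and SPRY4, the genes with the largest difference in each direction, 1 promoter each is shown. SPRED2 has another annotated start, whose window is not shown. Beside them stands 1 promoter each of SPRY1 and SPRY2, which hold matches to motifs of factors in the pathway. Each promoter shown is the 250 bases upstream of an annotated start, from RefSeq (GRCh38.p14). Their positions are chr2:65432600-65432849 (minus strand, SPRED2), chr5:142324248-142324497 (minus strand, SPRY4), chr4:123398136-123398385 (plus strand, SPRY1) and chr13:80341127-80341376 (minus strand, SPRY2). Capitals mark motif matches on either strand.
SPRED2: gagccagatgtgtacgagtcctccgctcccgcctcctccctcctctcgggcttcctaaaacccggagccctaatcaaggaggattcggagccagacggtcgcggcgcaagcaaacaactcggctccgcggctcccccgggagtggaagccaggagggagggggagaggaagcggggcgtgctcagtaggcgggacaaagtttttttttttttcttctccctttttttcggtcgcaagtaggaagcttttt
SPRY4: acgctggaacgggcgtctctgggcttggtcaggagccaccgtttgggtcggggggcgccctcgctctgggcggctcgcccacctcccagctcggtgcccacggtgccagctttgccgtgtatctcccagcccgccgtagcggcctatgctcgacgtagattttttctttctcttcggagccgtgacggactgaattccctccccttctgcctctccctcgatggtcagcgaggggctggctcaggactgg
SPRY1: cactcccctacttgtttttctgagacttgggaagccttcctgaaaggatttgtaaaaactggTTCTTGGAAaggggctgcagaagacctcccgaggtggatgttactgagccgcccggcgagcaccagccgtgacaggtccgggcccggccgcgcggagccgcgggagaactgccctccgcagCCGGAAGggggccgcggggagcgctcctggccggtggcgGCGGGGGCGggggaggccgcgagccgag
SPRY2: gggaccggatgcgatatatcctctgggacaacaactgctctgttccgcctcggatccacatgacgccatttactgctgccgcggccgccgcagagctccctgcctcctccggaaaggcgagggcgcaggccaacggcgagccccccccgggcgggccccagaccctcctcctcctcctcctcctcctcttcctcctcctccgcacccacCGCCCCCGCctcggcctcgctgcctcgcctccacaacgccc

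Upstream windows were found for all 7 genes, 16 in total, because most genes have several annotated starts. The motifs searched on both strands were CCGGAAG for ETS factors, TGACTCA or TGAGTCA for AP-1, TGACGTCA for the cyclic AMP response element, GCGTGGGCG or GCGGGGGCG for EGR factors, TTCNNNGAA for STAT5 and the CArG box of serum response factor. In the SPRY1 window the capitals mark a STAT5, an ETS and an EGR match in that order, and in the SPRY2 window an EGR match. No matches overlapped each other. AP-1 matches stood in 1 window of SPRED3 and 1 of SPRY3, the latter on the Y chromosome. The windows of SPRY3 on the X chromosome held no match. Windows of SPRED2, SPRY4 and SPRED1 held no match to these letters. Among all 35116 windows of the table, 8.52% held the ETS motif, 4.20% AP-1, 1.65% the cyclic AMP element, 5.37% EGR, 6.57% STAT5 and 1.16% the CArG box. Of the 16 windows, 1 held ETS, 2 AP-1, 2 EGR, 1 STAT5 and 0 either of the others. A match in these windows is a description of letters and not a binding site.

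The deposited values are logarithms centred on an unknown baseline. They are read as log2, which the sources do not state and which could not be tested, and every fold and 2-fold call rests on that reading. A value of 0 is that baseline, and a positive or negative value says nothing about how abundant a transcript is. The K562 label could therefore not be checked against marker levels. A difference is the value with EPO minus the value without EPO, and a gene was called higher or lower when it differed by at least 2-fold, which is 1 on this scale. Across all genes 1138 (6.19%) passed 2-fold with the higher value on the array with EPO, and 165 (0.898%) with the lower value there. Values spread less widely on the array with EPO, with a standard deviation of 0.134 over probes, against 0.431 on the array without EPO. The scaling of the arrays to each other decides the split: 124 genes (0.675%) were higher and 1213 (6.6%) lower after subtracting the median of 247 machinery genes (0.48), which most cells use, and 2781 (15.1%) were higher and 104 (0.566%) lower after subtracting that of 454 genes of silent families (-0.33). Subtracting the median of all genes gave 7.17% higher and 0.849% lower.

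None of the 7 genes reached 2-fold in either direction, so 0 were higher, against 6.19% of all genes, and 0 lower, against 0.898%. SPRED2 came closest, 1.90-fold higher with EPO. SPRY4 had the largest difference in the other direction, 1.36-fold lower with EPO. The differences ran from -0.44 to 0.92 with a median of -0.047, and the median of all genes was -0.047 as well. Of the 7, 3 lay above 0 and 4 below, and 6 lay within 0.5 of 0, as did 71.1% of all genes. At a threshold of 1.5-fold SPRED2 alone was higher, against 18.1% of all genes, and 0 were lower, against 4.65%. At 1.2-fold SPRED2 and SPRY2 were higher, against 30.9% of all genes, and SPRY4 was lower, against 25.2%. The median size of the difference, whatever its sign, was 0.23 for the 7 genes and 0.31 for all genes.

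**Figure D1:**
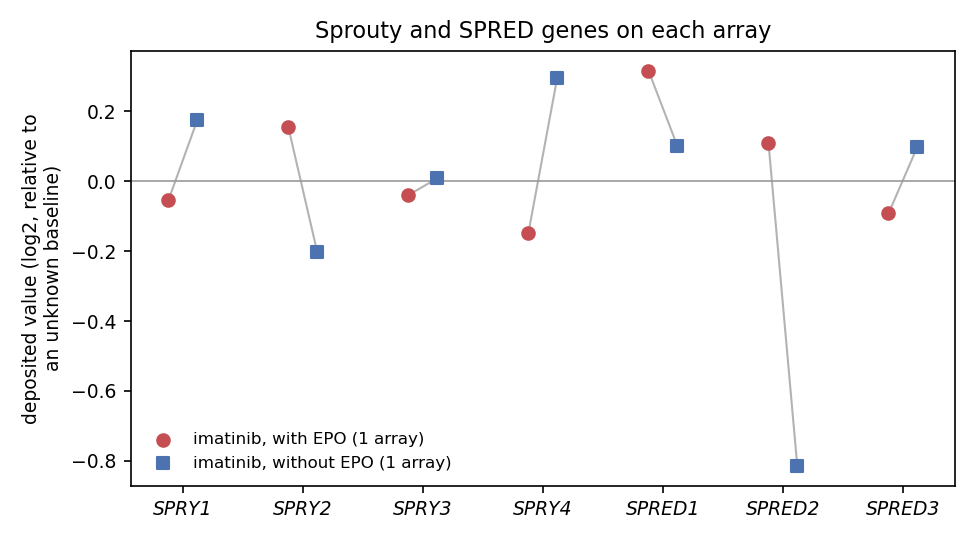
Deposited value of each Sprouty and SPRED gene (vertical axis, log2 relative to an unknown baseline) on the array with EPO (red circles) and the array without EPO (blue squares), 1 array each. SPRED2 has the widest gap, 0.11 with EPO against -0.81 without EPO, and SPRED1 is the 1 gene above the baseline on both arrays.

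The Sprouty genes did not share a direction. SPRY2, the family member best known for binding CBL, stood at 0.15 with EPO and -0.20 without EPO, a difference of 0.36 (1.28-fold). It was the 1 Sprouty gene with the higher value on the array with EPO, and 73.1% of all genes had a lower difference. SPRY4, another inhibitor of receptor signalling to ERK, had the opposite arrangement. Its value was -0.15 with EPO and 0.30 without EPO, a difference of -0.44, and 10.3% of all genes had a lower one. The differences of SPRY2 and SPRY4 lay 0.80 apart, which is 1.74-fold, with no error on either.

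SPRY1, whose protein binds the adaptor GRB2 when phosphorylated, stood at -0.055 with EPO and 0.17 without EPO. Its difference of -0.23 was 1.17-fold lower with EPO. SPRY3, whose gene lies in a pseudoautosomal region, was nearly level at -0.039 with EPO and 0.0079 without EPO, a difference of -0.047. It is the 1 gene of the 7 with 2 probes. The platform lists the same transcripts for them, and they gave differences of -0.046 and -0.049. Their values are therefore not separate measurements of different genes. In the promoter table an upstream window of SPRY3 on the X chromosome and one on the Y chromosome have the same 300 bases.

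SPRED2 had the largest difference of the SPRED genes and of all 7 genes. It stood at 0.11 with EPO and -0.81 without EPO, a difference of 0.92, and 92.2% of all genes had a lower difference. By rank within each array, its value was above 81.7% of genes with EPO and above 7.02% without EPO. Because the values are centred on an unknown baseline, such ranks do not show on which array a gene changed. A larger difference in size, in either direction, was seen in 1631 genes (8.88%). SPRED2 is an inhibitor of RAS signalling that is widely expressed, including in blood-forming cells.

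SPRED1, the relative whose loss in people causes Legius syndrome, a disorder of RAS signalling, stood at 0.32 with EPO and 0.10 without EPO. The difference was 0.22 (1.16-fold). By rank within each array, its value was above 98.6% of genes with EPO and above 61.4% without EPO. SPRED3, whose protein lacks a working KIT-binding domain, stood at -0.092 with EPO and 0.098 without EPO. Its difference of -0.19 had the opposite sign to those of SPRED1 and SPRED2. The difference of SPRED2 exceeded that of SPRED1 by 0.71. It exceeded that of SPRED3 by 1.12, a 2.17-fold gap within the family.

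Opposite signs on the arrays were the rule in this table rather than a property of the 7 genes. They were found in 6 of the 7, SPRED1 being the exception, and in 83.1% of all genes. The value with EPO was the nearer to the baseline in 5 of the 7, with SPRED1 and SPRY3 as the exceptions, and in 82.6% of all genes.

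The direction of most of the 7 genes depended on the scaling between the arrays. SPRED2 stayed higher with EPO and SPRY4 lower under each of the 3 other scalings. SPRED2 stood at 0.97 with the median of all genes subtracted, 0.45 with the machinery median subtracted and 1.25 with the silent median subtracted. Under the last of these it passed 2-fold, as did 15.1% of all genes in that direction. SPRY4 stood at -0.40, -0.92 and -0.12 under the same 3 scalings. SPRY2 and SPRED1 turned negative with the machinery median subtracted, at -0.12 and -0.26. SPRY1, SPRY3 and SPRED3 turned positive with the silent median subtracted, at 0.099, 0.28 and 0.14. Against the machinery genes, whose differences had a central 95% from -0.52 to 1.39, the 7 genes lay between percentiles 4.05 (SPRY4) and 81.8 (SPRED2). Against the silent families, with a central 95% from -0.98 to 0.31, SPRED2 and SPRY2 lay above the range. By rank SPRY2 and SPRED1 were alike, each above 97.4% of the silent genes.

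**Figure D2:**
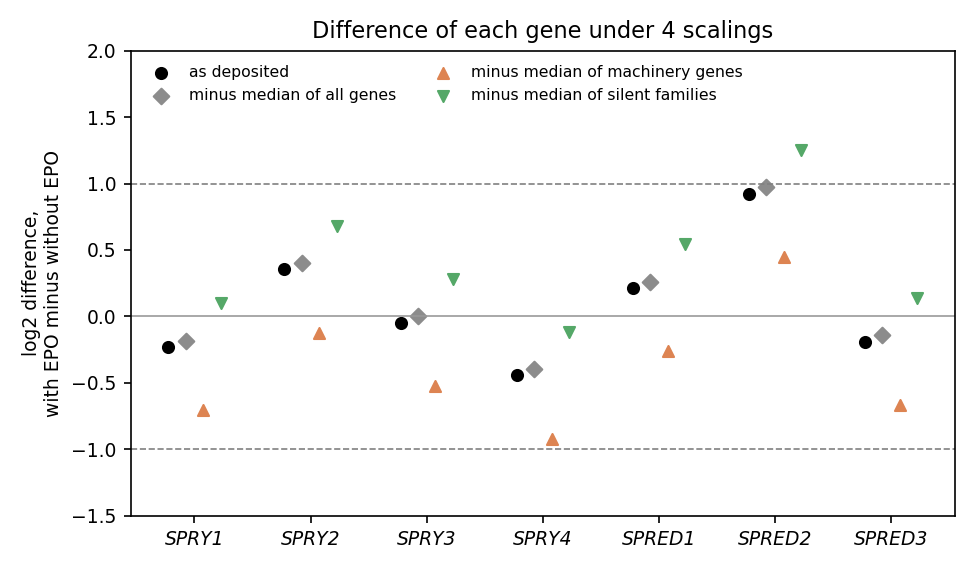
Difference of each gene, with EPO minus without EPO (vertical axis, log2), as deposited and with the median difference of all genes, of machinery genes or of silent families subtracted. Dashed lines mark 2-fold. SPRED2 is above 0 and SPRY4 below 0 under all 4 scalings, and the 1 point past 2-fold is SPRED2 with the silent median subtracted, at 1.25.

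The 7 genes were set beside other delayed outputs of ERK, to place them as slower feedback. Of 12 such genes, 0 were at least 2-fold higher and 0 lower, against 6.19% and 0.898% of all genes. With the machinery median subtracted 2 of the 12 were at least 2-fold lower, as were 6.6% of all genes. Below 0 lay 11 of the 12, as did 10032 of all 18377 genes and 415 of 454 genes of silent families. The median was -0.22 (0.10 with the silent median subtracted). DUSP5, a nuclear ERK phosphatase, was lowest at -0.96, with -0.32 with EPO and 0.64 without EPO. PHLDA1 stood at -0.60 and CCND1, the cyclin D1 gene, at -0.51. The ERK phosphatase DUSP6 stood at -0.10, and the ETS factors ETV4 and ETV5, often induced along with Sprouty genes, at -0.25 and -0.35. SPRY4, SPRY1 and SPRED3 lay within the span of these 12 genes, with 3, 6 and 7 of them below. SPRY3 lay above 11 of the 12. SPRY2, SPRED1 and SPRED2 lay above all 12.

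Immediate-early genes, the fast arm of the same response, differed more between the arrays. Of 14 measured, 10 were lower with EPO by 2-fold or more and 0 higher, against 0.898% and 6.19% of all genes. The median was -1.66 and was negative under all 4 scalings. EGR1, a zinc finger factor, had -0.98 with EPO and 1.94 without EPO, a difference of -2.92. IER3, a survival gene, differed by -2.91 and the AP-1 subunit JUNB by -1.88. Of the Sprouty and SPRED genes, SPRY4 lay above 11 of the 14, SPRY1 and SPRED3 above 13, and the other 4 above all 14. The list was chosen with these values known, so its direction is a description only.

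Of 12 genes whose products modify or bind Sprouty and SPRED proteins, 10 lay above 0, as did 45.4% of all genes and 77.7% of machinery genes, and 6 of the 12 did so with the machinery median subtracted. In this list 1 gene was at least 2-fold higher with EPO and 0 lower, against 6.19% and 0.898% of all genes. The median was 0.45, or -0.028 with the machinery median subtracted, when 0 of the 12 were past 2-fold. PPP2CB, a catalytic subunit of protein phosphatase 2A, stood at 0.15 with EPO and -1.22 without EPO, a difference of 1.36. CBL differed by 0.84 and the ubiquitin ligase NEDD4, which targets SPRY2, by 0.78. SPRED2 lay above 11 of the 12, and SPRY1 and SPRY4 lay below all 12.

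The genes of RAS GTPase-activating proteins, among them NF1, whose product SPRED proteins recruit, had smaller differences. Of 6 measured, 0 were past 2-fold, against 6.19% of all genes higher and 0.898% lower. The median was -0.17 (0.15 with the silent median subtracted). Below 0 lay 5 of the 6, as did 10032 of all 18377 genes and 415 of 454 genes of silent families. NF1 itself stood at -0.064 with EPO and 0.10 without EPO, a difference of -0.17. RASAL2 differed by -0.44, RASAL1 by -0.37 and RASAL3 by -0.18. SPRY2, SPRED1 and SPRED2 lay above all 6. SPRY4 lay below all 6, though by little, as both it and RASAL2 stood at -0.44 when rounded.

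Upstream of RAS, 2 of 12 adaptors and exchange factors were higher with EPO by 2-fold or more and 0 lower, against 6.19% and 0.898% of all genes. The median was 0.29, or -0.19 with the machinery median subtracted, when 0 of the 12 were past 2-fold. PTPN11, the phosphatase SHP2, differed by 1.19, GRB2, the adaptor that links receptors to SOS, by 1.14 and the exchange factor RASGRP1 by 0.80. SPRED2 was the 1 gene of the 7 with a difference above that of RASGRP1. Of 6 RAS family GTPases 0 were past 2-fold, with RAP1B at 0.76, RAP1A at 0.74 and RRAS2 at -0.63. With the machinery median subtracted 2 of the 6, RRAS2 (-1.11) among them, were at least 2-fold lower, as were 6.6% of all genes. Of 6 kinases and scaffolds of the cascade 0 were past 2-fold, with the scaffold KSR1 at 0.62, ARAF at 0.47, MAP2K1 (MEK1) at 0.20 and MAPK3 (ERK1) at 0.025. The medians of the GTPases and of the cascade, 0.20 each, turned to -0.27 each with the machinery median subtracted. Of 6 other inhibitors of receptor or RAF signalling 0 were past 2-fold, with the RAF inhibitor PEBP1 at 0.31, LRIG1 at -0.27 and ERRFI1 at 0.24, and the median was -0.0039 (0.043 after subtracting the all-gene median, 0.32 after subtracting the silent median).

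**Figure D3:**
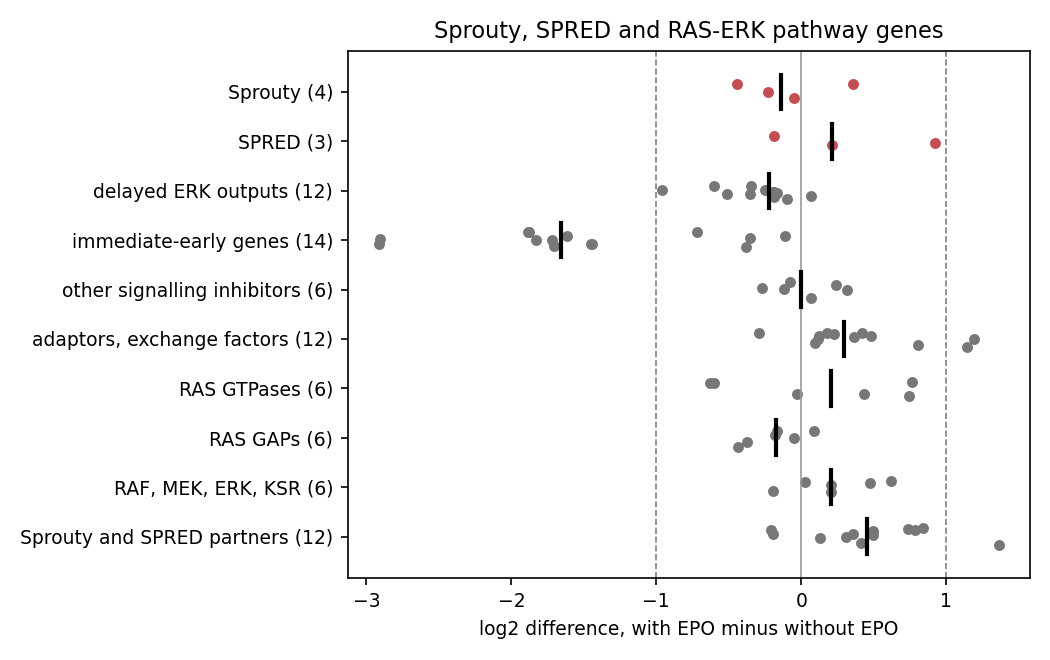
Differences, with EPO minus without EPO (horizontal axis, log2), of the Sprouty and SPRED genes (red) and of genes in 8 lists of the RAS-ERK pathway (grey), with the number measured in brackets, a black bar at each median and dashed lines at 2-fold. Immediate-early genes reach -2.92, while the 7 Sprouty and SPRED genes lie between -0.44 and 0.92.

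The genes whose pair of values lay nearest to that of SPRED2 were IGF1R, a growth factor receptor, C6orf120 and DENND4C, at Euclidean distances of 0.0021, 0.0050 and 0.0096. IGF1R stood at 0.11 with EPO and -0.81 without EPO. Likeness over 2 values, 1 from each array, is a weak measure.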

How the data were processed

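Gene expression was measured on 2 Affymetrix Gene 1.0 ST arrays, 1 per group, per the labels' protocols. The authors deposited values for 28869 probes, read here as log2. How they were normalized and centred, and with which software, is not given in the sources examined, and base 2 is a reading that could not be tested. The number of arrays limits the precision. Probes with 1 gene symbol in the platform annotation (19310) were renamed by Entrez ID through RefSeq (19279 matched), and probes of a gene were averaged. No probe with several genes listed a Sprouty or SPRED gene.

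The value with EPO minus that without EPO was computed per gene, with no test. Machinery genes (respiratory chain, mitochondrial ribosome, spliceosome, proteasome, nuclear pore, RNA polymerase II) and silent families (beta-defensins, keratin-associated proteins, receptors for odour, taste and pheromones) were chosen by symbol. The members and lists were chosen with earlier results of these data known. Named genes are the 7 members, the 3 largest differences in each list, a fixed set of pathway genes and the 3 genes nearest to SPRED2. Some genes of the lists are not reported here. Alternatives were fold thresholds, scalings, probe rules and a filter on values near the baseline. Averaging and calls were tested on simulated data. Python 3.11.15, NumPy 2.4.6 and pandas 2.3.3 were used.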

Additional observations from a re-analysis of the deposited data

How the results depend on the processing

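The count of 0 Sprouty or SPRED genes past 2-fold in either direction was the same with the median of all genes or of machinery genes subtracted, with either other rule for the probes of a gene, with probes of several genes admitted and with probes within 0.1 of the baseline on both arrays left out. With the silent median subtracted 1 gene was higher, SPRED2, as were 15.1% of all genes. At a threshold of 1.5-fold 1 gene was higher (all genes 18.1%) and 0 lower (4.65%), and at 1.2-fold 2 were higher (30.9%) and 1 lower (25.2%). The median difference of -0.047 became -0.00055 with the median of all genes subtracted, -0.53 with the machinery median subtracted, 0.28 with the silent median subtracted, and 0.22 over the 5 genes left by the filter near the baseline, which removes SPRY3 and SPRED3. Subtracting the machinery median turned SPRY2 to -0.12 and SPRED1 to -0.26, and subtracting the silent median turned SPRY1 to 0.099, SPRY3 to 0.28 and SPRED3 to 0.14. Subtracting a median moves each gene by the same amount, so the order of the 7 genes does not depend on it. No array could be left out with 1 per group. No paired analysis was possible because each group has 1 array. Signal over background was not analysed here.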

Other observations

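Other proteins with an EVH1 domain, the domain that marks SPRED proteins, gave 8 measured genes. Of these genes 0 were past 2-fold, against 6.19% of all genes higher and 0.898% lower. Their median was -0.11 (0.22 with the silent median subtracted). WASL, an activator of actin branching, differed by 0.56, the synaptic scaffold gene HOMER1 by 0.51 and HOMER3 by -0.38.

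Of 6 measured erythroid markers 1 was at least 2-fold higher with EPO, the transferrin receptor gene TFRC at 1.02, and 0 were lower. Of all genes, 6.19% were higher and 0.898% lower. The erythroid median was 0.28, or -0.20 with the machinery median subtracted, when 0 of the 6 were past 2-fold. Lymphoid markers (7 measured) had a median of -0.23 with 0 past 2-fold. Granulocyte and monocyte markers (8) had a median of -0.27, with 1 higher and 1 lower, and epithelial and stromal markers (8) a median of -0.20, with 1 higher and 0 lower. The last 3 medians turned positive with the silent median subtracted, at 0.099, 0.056 and 0.13. With the machinery median subtracted, 2, 3 and 2 markers of these 3 lists were at least 2-fold lower and 0 higher, against 6.6% and 0.675% of all genes. Marker levels cannot be read from centred values, and their part in the differences of the Sprouty and SPRED genes was not tested.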
